A study of Mus musculus with 2 samples.

Results

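The axon guidance ligands and receptors described here are the mouse genes of the semaphorin, plexin, neuropilin, ephrin, Eph, Slit, Robo, netrin and netrin receptor families. They were chosen by the letters of their symbols, as all panel genes that start with Sema, Plxn, Epha, Ephb, Efna, Efnb, Slit, Robo, Unc5 or Ntn, with Nrp1, Nrp2 and Dcc added and the Slitrk genes left out. Of 19465 genes in the panel, 73 met this rule, and 62 of them had at least 100 unique molecular identifiers (UMIs, counts of single captured probe pairs) on the tissue spots. The rule does not use how the genes vary over the section. Of the 73 symbols, 37 encode ligands and 34 receptors. The remaining 2, Unc50 and Unc5cl, share only the letters of the rule, and Unc5cl had 0 UMIs.

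The series profiled brain sections of male mice aged 6 months with Visium CytAssist, in which probe pairs bound to transcripts are ligated in the tissue, moved onto a slide of barcoded spots and counted. Its labels give 1 section of a G2-3 mouse, a line carrying A53T alpha-synuclein, and 1 section of a WT (wild type) animal, and the promoter that drives the transgene is not given there. The count matrices, barcodes and gene lists deposited for both samples were the same byte for byte, so all 2722 barcodes are shared, the library was counted once and no genotype could be compared. All values below come from 1 section with no replicate, and the question they answer is how the guidance genes differ between brain regions.

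Guidance molecules steer growing axons by attraction or repulsion, and many remain expressed in the adult brain, where they are known to act at synapses and on dendrites. Slit proteins signal through Robo receptors, netrins through Dcc and the Unc5 receptors, ephrins through Eph receptor kinases, and semaphorins through plexins, with neuropilins as the binding partners of most secreted semaphorins. In the hippocampus, semaphorins, plexins and Eph receptors are known for placing the axons of granule cells and for shaping their spines.

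The library held 21695663 UMIs. The positions deposited under the WT label mark 2487 spots as tissue and leave 0 of them without counts, whereas those under the G2-3 label mark 2969 and leave 751 without counts, so the WT marks were used without assigning a genotype. The 2485 spots with at least 500 UMIs had a median of 6686 UMIs, from 1183 to 80174. They formed 17 regions in a clustering that did not use any member, and each region is called by its leading genes. Marked by C1ql2 and Pcdh20, 1 region (54 spots, 1776593 UMIs) had 9 hippocampal markers above the marker threshold and is called the dentate gyrus here. Cortex (453 spots, 5327051 UMIs) joins an upper band led by Igfn1 and Clec18a, a deep band led by Myl4 and Col5a1, and a layer 6b band led by Ccn2 and Nxph3. The ventral midbrain region (355 spots, 1599522 UMIs) joins the regions whose marker of highest fold was the dopamine transporter gene Slc6a3. The larger of these carried 11 white matter markers against 5 nigral ones, so it reaches well beyond the substantia nigra. A spot covers several cells, and fewer cells of a type cannot be told apart from less RNA per cell. Levels are given as CPM, the UMIs of a gene per 1000000 UMIs of a region, brackets hold 95% intervals that cover counting error only, and levels of different genes are not compared, since each depends on its probes.

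The promoters of the members that stood out most from the rest of the section are shown first, as the sequences nearest to the start of each gene. Among the measured members, 5 were at least 8-fold higher in their leading region than in all other spots, and 4 of these 5 have an entry in the RefSeq promoter table (build GRCm38.p6, in which 52 of the 62 measured members were found). Each sequence is the 250 bases before the start site that the table gives, 5′ to 3′ on the strand of the gene. Capitals mark matches, on either strand, to GGGCGG (the GC box), CAGATG (an E-box) or ACAAAG (a Sox-type motif). Sema5a lies on the plus strand at chr15:32244563-32244812, Ntn5 on the plus strand at chr7:45683772-45684021, Plxnb3 on the plus strand at chrX:73756853-73757102 and Epha8 on the minus strand at chr4:136956817-136957066. For Plxnb3 the window lies inside the annotated gene, which spans positions 73756556 to 73772510, and for Epha8 it overlaps the end of the annotated gene at position 136956859, so neither start is the outermost one. The remaining member of the 5 was Sema3b.
Sema5a: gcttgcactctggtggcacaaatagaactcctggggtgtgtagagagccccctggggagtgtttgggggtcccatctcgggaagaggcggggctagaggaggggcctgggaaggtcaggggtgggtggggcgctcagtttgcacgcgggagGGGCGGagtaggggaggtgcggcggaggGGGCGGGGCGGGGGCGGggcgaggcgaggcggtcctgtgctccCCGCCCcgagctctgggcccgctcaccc
Ntn5: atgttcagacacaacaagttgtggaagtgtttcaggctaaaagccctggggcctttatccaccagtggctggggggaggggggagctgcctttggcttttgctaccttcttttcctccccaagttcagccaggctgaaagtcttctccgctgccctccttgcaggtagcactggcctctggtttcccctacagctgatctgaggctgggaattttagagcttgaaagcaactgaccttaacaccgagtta
Plxnb3: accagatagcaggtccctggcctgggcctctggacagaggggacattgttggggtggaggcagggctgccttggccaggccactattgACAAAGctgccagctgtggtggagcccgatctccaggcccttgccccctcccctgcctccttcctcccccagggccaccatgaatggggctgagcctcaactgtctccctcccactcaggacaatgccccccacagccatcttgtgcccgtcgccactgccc
Epha8: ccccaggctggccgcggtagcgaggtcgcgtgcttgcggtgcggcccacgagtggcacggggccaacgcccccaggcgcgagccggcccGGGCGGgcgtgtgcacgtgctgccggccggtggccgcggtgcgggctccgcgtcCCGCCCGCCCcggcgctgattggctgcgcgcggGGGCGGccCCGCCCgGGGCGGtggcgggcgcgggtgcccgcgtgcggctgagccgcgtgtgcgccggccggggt
The GC box occurred 5 times in the Sema5a window and 6 times in that of Epha8, overlapping matches included, and was not found in the Ntn5 and Plxnb3 windows. It was in 32.9% of the 27025 promoters listed, and in 41 of the 52 members' promoters. The E-box was found in 14.5% of all promoters and in 4 of the members', and in none of the 4 windows printed. ACAAAG was found in 16.5% of all promoters and in 3 of the members', with 1 match in the Plxnb3 window. GC content was 72% for Sema5a, 52.8% for Ntn5, 65.2% for Plxnb3 and 84% for Epha8, against a median of 52% over all promoters. A match describes letters only, and says nothing of binding.

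Guidance genes varied widely between regions. Of the 62 measured members, 16 (25.8%) were at least 4-fold higher in their leading region than in all other spots, against 10.7% of all genes and 5.79% of the genes not used to find the regions. The genes not used lack the most variable genes, which the clustering picked, whereas members were left out however variable they were. Values for the genes not used, here and below, are therefore lowered by that choice. The median log2 ratio of the leading region over the rest was 1.51 for members and 0.84 for the genes not used. The dentate gyrus led for 15 members (24.2%), against 15.7% of those genes, and the layer 6b band for 9 (14.5%), against 6.39%. The white matter region (led by Klk6 and Gfap) and the Sp5/Sox14 region of the dorsal midbrain led for 6 each (9.68%), against 5.77% and 8.38%, and the remaining regions for 5 or fewer. For 23 members (37.1%) the leading region exceeded the next one beyond counting error, against 13.7% of those genes. Counted per spot with no scaling by depth, the 4-fold members were 36 (background 56.9%), and the dentate gyrus had 32900 UMIs per spot on average.

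**Figure D1:**
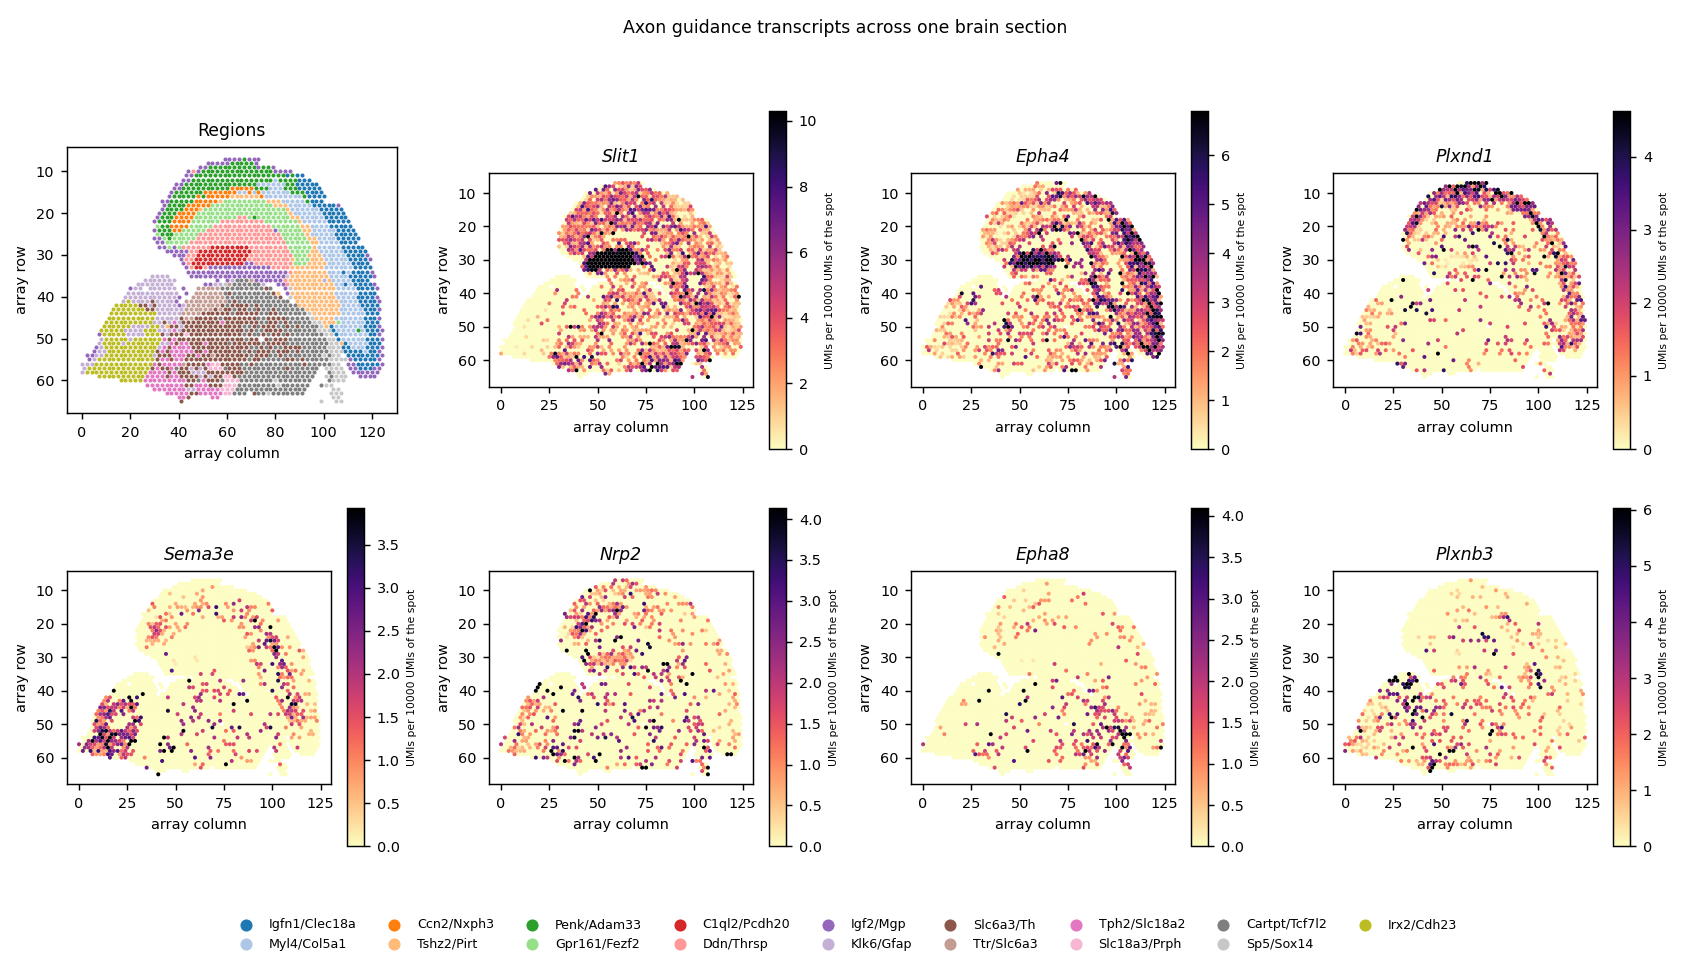
Maps of the 2485 tissue spots by array column and row, with the 17 regions by colour and 7 members as UMIs per 10000 UMIs of the spot, each colour scale ending at the 95th percentile of the spots with a UMI. Slit1 stands out in the dentate gyrus (C1ql2/Pcdh20), Sema3e at the hindbrain end (Irx2/Cdh23), Nrp2 in the layer 6b band (Ccn2/Nxph3) and Epha8 in the Sp5/Sox14 region, and Plxnd1 lies along the outer cortex.

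Sema5a, a membrane-bound semaphorin with thrombospondin repeats, was among the ligands that led in the dentate gyrus. It reached 222 UMIs in the dentate gyrus, or 125 CPM (109 to 142), and 14.6 CPM over all other spots, an 8.55-fold ratio. The next highest region was Sp5/Sox14 with 35.5 CPM, and the Gpr161/Fezf2 region, an arc between the dentate gyrus and cortex, had 3.85 CPM. Ntn5, a secreted member of the netrin family, had 333 UMIs in the dentate gyrus (187 CPM, 168 to 209), 61.9 CPM in the upper cortical band and 41.9 CPM in the deep band. In the hindbrain region Ntn5 had 0 UMIs of 2094876, which allows up to 1.43 CPM. Slit1, a secreted repellent for Robo-bearing axons, had 3012 UMIs in the dentate gyrus (1695 CPM, 1635 to 1757), 413 CPM in the Ddn/Thrsp region around it and 11.9 CPM in the hindbrain region, where it was lowest. In each of these 3 ligands the interval of the dentate gyrus lay apart from that of every other region.

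Among receptors, the dentate gyrus led with Plxna4, a plexin that serves secreted and membrane-bound semaphorins, at 735 CPM (695 to 776) against 144 CPM over the other spots. Epha7, an EphA receptor kinase, had 73.7 CPM there and 15.4 CPM elsewhere, and Nrp1, a co-receptor of secreted semaphorins, had 35.5 and 8.27 CPM. The lead of Nrp1 over the Slc18a3/Prph region (29.8 CPM from 19 spots) was within counting error. Summed over the measured and unmeasured members, ligands took 4627 CPM in the dentate gyrus (4527 to 4728) and receptors 3010 CPM (2930 to 3092), the highest sums of the 17 regions. In the other 16, ligand sums lay between 1370 CPM in the Slc18a3/Prph region and 2290 CPM in the Gpr161/Fezf2 arc, and receptor sums between 1278 and 2283 CPM. In the dentate gyrus, Slit1 alone gave 1695 CPM of the ligand sum, and Unc5a, Plxna4 and Epha4 gave 783, 735 and 603 CPM of the receptor sum. The sums thus weigh a few members most and do not stand for each member.

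**Figure D2:**
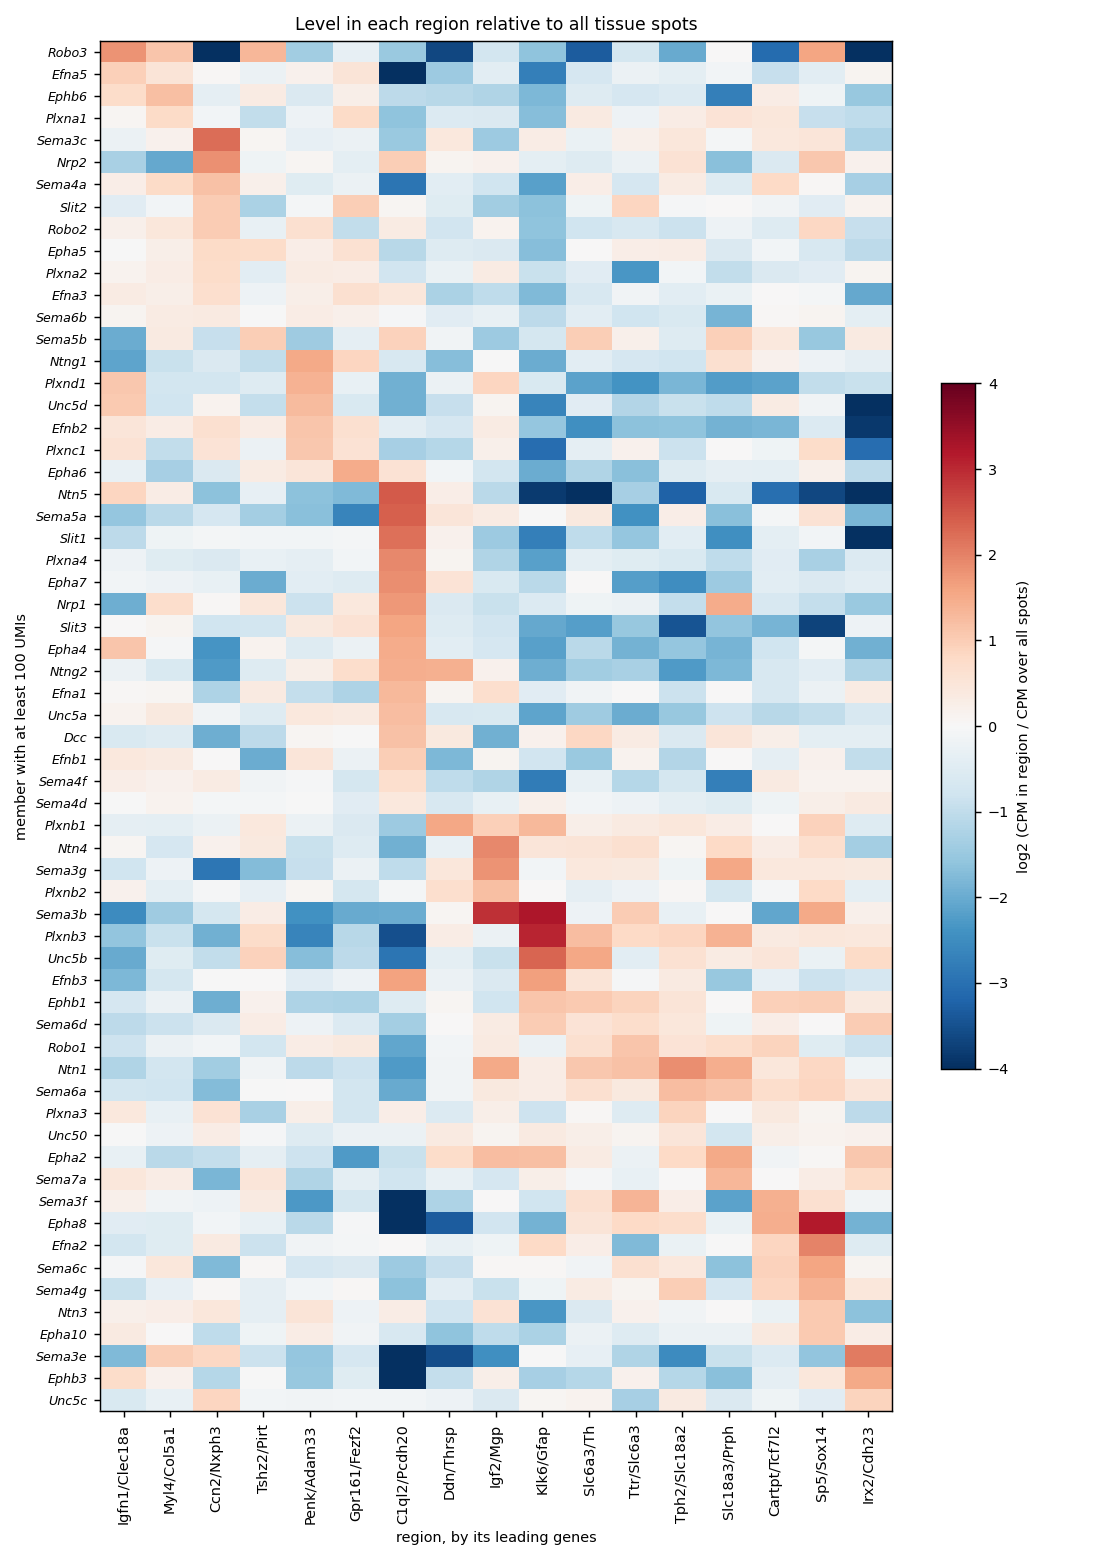
Log2 ratio of each measured member's CPM in a region (columns, by leading genes) to its CPM over all tissue spots (colours end at -4 and 4; a count of 0 is drawn at its 3-count limit, or white where that limit lies above the level over all spots). Blocks stand out for the dentate gyrus (C1ql2/Pcdh20), where Ntn5, Sema5a, Slit1 and Plxna4 are high, and for white matter (Klk6/Gfap), where Sema3b, Plxnb3 and Unc5b are high.

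The remaining regional members led elsewhere. Epha8, an EphA receptor, had 58 UMIs in the Sp5/Sox14 region (159 CPM, 120 to 205), 48.6 CPM in the Cartpt/Tcf7l2 region beside it and 2 UMIs in the dentate gyrus. It was the third leading gene of the Sp5/Sox14 cluster, and where reclustering merged that cluster into Cartpt/Tcf7l2 its log2 ratio over the rest went from 3.38 to as low as 2.36. Efna2, an ephrin-A ligand, also led in Sp5/Sox14, with 60.1 CPM against 27.2 CPM in Cartpt/Tcf7l2 (log2 ratio 1.14, 0.36 to 1.89). Sema3e, a secreted semaphorin that binds plexin-D1, led in the hindbrain region led by Irx2 and Cdh23, with 364 UMIs (174 CPM, 156 to 193) against 81.9 CPM in the deep cortical band, the next highest. The meningeal region led by Igf2 and Mgp was highest for Ntn4, a laminin-related netrin (32.1 CPM, 4.39-fold over the rest), and Sema3g, a secreted semaphorin (35.9 CPM, 4.05-fold), and neither lead over the small Slc18a3/Prph region was beyond counting error. Summed meningeal fibroblast markers were 2635 CPM in this region and at most 585 CPM in the other 16, and summed mural cell markers 990 and at most 334 CPM; their part in these 2 leads was not tested.

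The first comparison asked how the dentate gyrus differs from cortex. Granule cell territory had more transcripts of Slit1 and Slit3, while semaphorin, plexin, ephrin and Eph genes fell on both sides. Of the 46 members with at least 100 UMIs over both, the dentate gyrus had 2-fold or higher levels of 12 (26.1%), against 6.47% of all genes tested and 5.76% of the genes not used to find the regions, and at least 2-fold lower levels of 18 (39.1%), against 13.1% and 10.5%. The median log2 ratio was -0.14 for members and 0.03 for the genes not used to find the regions (the background below), so the members spread to both sides around a median near 0. Counted per spot the split was 26 higher and 6 lower, where a spot held 11759 UMIs on average in cortex and 32900 in the dentate gyrus. No share over all genes stands beside the per-spot counts here and below, so they are not read as a result about the members.

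The ligands of highest ratio were Sema5a, Slit1 and Efnb3. Sema5a had 222 UMIs against 55 (12.1-fold, log2 ratio 3.60, 3.17 to 4.05). Slit1 had 1695 CPM against 258 CPM (6.58-fold, 2.72, 2.62 to 2.81), and its relative Slit3 had 536 against 175 CPM (3.06-fold). Efnb3, a transmembrane ephrin known as a midline barrier to corticospinal axons, had 715 against 118 CPM (6.05-fold, 2.60, 2.46 to 2.74). Ntng2, a membrane-anchored netrin-G that binds the synaptic adhesion protein Lrrc4, had 360 against 90.3 CPM, and Ntn5 had 187 against 47.3 CPM, ratios of 3.98 and 3.96. In each of these 6 ligands the interval lay above a 2-fold ratio.

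Receptors at least 2-fold higher were Plxna4 (4.85-fold, log2 ratio 2.28), Epha7 (4.09-fold), Nrp1 (3.78-fold), Nrp2 (2.52-fold), Epha6 (2.32-fold) and Unc5a, a netrin receptor for repulsion (2.03-fold, 783 against 386 CPM). Epha4, the receptor of both ephrin classes, was just under the threshold at 603 against 308 CPM (1.96-fold, log2 ratio 0.97, 0.86 to 1.08). The Nrp2 value rests on which cortex is taken. In the lower array columns, where 49 of the 51 cortex spots belong to the layer 6b band, its log2 ratio was -0.84.

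On the lower side, the ligand Efna5, an ephrin-A known for topographic maps, had 4 dentate gyrus UMIs beside 409 cortical ones (34.1-fold lower, log2 ratio -5.09, -6.97 to -3.72). The secreted semaphorins Sema3e (4 against 250 UMIs, -4.38) and Sema3f (3 against 180, -4.32, -6.61 to -2.75) and the membrane-bound Sema4a (5 against 174, -3.54) followed. Among receptors, the EphB kinase gene Ephb3 had 2 UMIs against 165 (-4.78, -7.84 to -2.91) and Robo3, a divergent Robo that controls midline crossing, had 14 against 292 (-2.80). Unc5d (-2.38), Plxnd1 (-2.33), Plxna1 (-1.97), Ephb6 (-1.86), Robo1 (-1.61), Sema6c (-1.49), Plxnc1 (-1.47), Epha5 (-1.31), Sema4g (-1.14), Plxnb1 (-1.11), Plxna2 (-1.04) and Sema7a (-1.03) completed the 18.

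Several of the smaller ratios changed sign with the way regions were drawn or scaled. Sema7a was at 0.99 in the lower array columns, and with the dentate gyrus pooled with the Ddn/Thrsp and Gpr161/Fezf2 regions into a wider hippocampus Robo1 was at 0.14 and Plxnb1 at 0.11. The lower members then numbered 9 for the wider hippocampus and 2 of 23 measured in the lower columns. Summed oligodendrocyte markers were 94.6 CPM in the dentate gyrus and 899 CPM in cortex, and summed GABAergic neuron markers 98.5 and 1806 CPM, with 1 of the 8 GABAergic markers at 0 in the dentate gyrus; their part in these ratios was not tested.

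**Figure D3:**
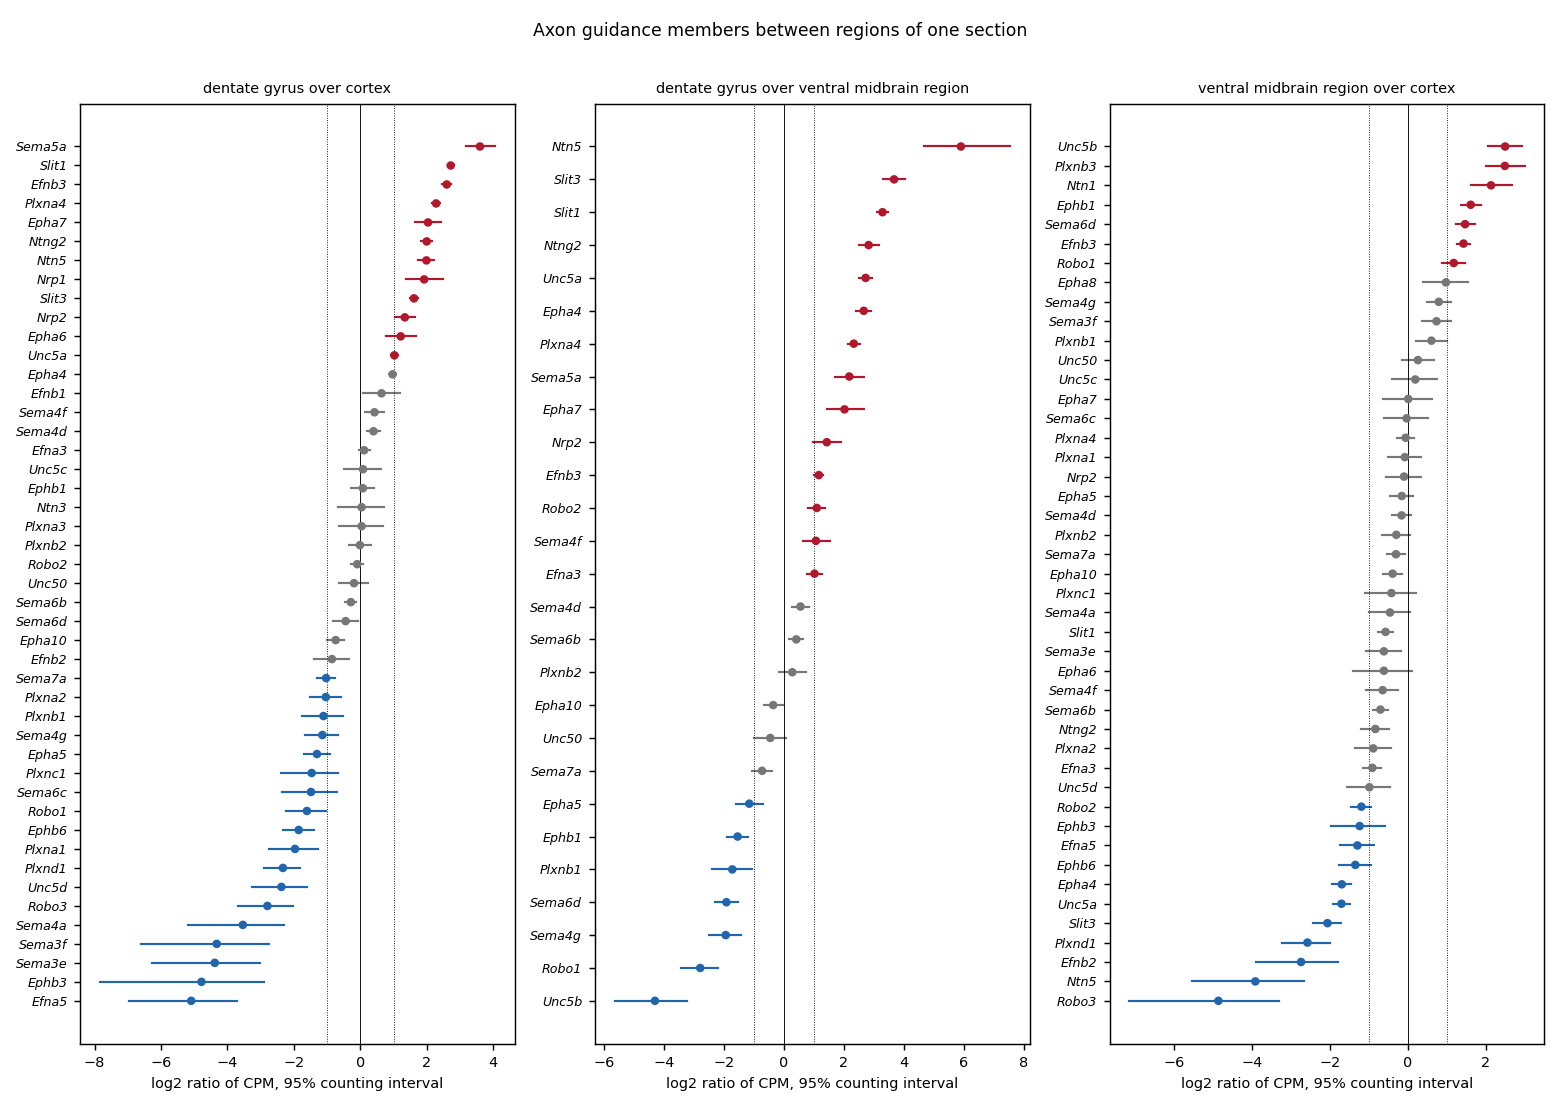
Log2 CPM ratio of each measured member between the dentate gyrus, cortex and the ventral midbrain region, with 95% counting intervals; red and blue points are at least 2-fold higher and lower, grey points less, and dotted lines mark 2-fold. Slit1, Ntn5, Ntng2, Plxna4 and Sema5a are on the red side of both dentate gyrus panels, which share the dentate gyrus spots.

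The second comparison set the dentate gyrus against the ventral midbrain region. Of 27 measured members, the dentate gyrus had 2-fold or higher levels of 14 (51.9%), against 13.9% of all genes tested and a background of 13.5%, and at least 2-fold lower levels of 7 (25.9%), against 15.8% and 10.7%. The median log2 ratio was 1.02 for members and 0.08 for the background. That median depends on the minimum count, since with at least 20 UMIs per gene it was -0.10 over 58 members, of which 19 were higher and 22 lower. Spots of the ventral midbrain region held 4506 UMIs on average, and per spot the split was 23 higher and 1 lower, with no share over all genes beside it.

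Ntn5 had 333 dentate gyrus UMIs beside 5 in the ventral midbrain region (60.0-fold, log2 ratio 5.91, 4.67 to 7.54). Slit3 had 536 against 41.9 CPM (12.8-fold, 3.68, 3.32 to 4.06) and Slit1 had 1695 against 173 CPM (9.79-fold, 3.29). Ntng2 (2.83) and Sema5a (2.18) were the other ligands more than 4-fold higher, and Efnb3 (1.17), Sema4f (1.07) and Efna3 (1.02) were closer to 2-fold. Among receptors the log2 ratio was 2.73 for Unc5a, 2.67 for Epha4, 2.33 for Plxna4, 2.02 for Epha7, 1.43 for Nrp2 and 1.10 for Robo2.

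The netrin receptor Unc5b was lowest, with 7 dentate gyrus UMIs beside 124 in the ventral midbrain region (19.7-fold lower, log2 ratio -4.30, -5.64 to -3.21). Robo1, a Slit receptor, had 15.2 against 105 CPM (-2.79, -3.43 to -2.20). The membrane-bound semaphorins Sema4g (-1.94) and Sema6d (-1.91), the plexin Plxnb1 (-1.72), Ephb1 (-1.54) and Epha5 (-1.15) were also at least 2-fold lower. Over only the 87 ventral midbrain spots with a UMI of Th or Slc6a3, 3 members were lower. When no gene was left out of the clustering, the region grew to 492 spots and 12 members were lower. Summed oligodendrocyte markers were 94.6 CPM in the dentate gyrus and 8439 CPM in the ventral midbrain region, glutamatergic neuron markers 5357 and 384 CPM, GABAergic neuron markers 98.5 and 1203 CPM, and astrocyte markers 490.3 and 2164 CPM; their part in these ratios was not tested.

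The third comparison set the ventral midbrain region against cortex. Of 45 measured members, 7 (15.6%) were at least 2-fold higher in the ventral midbrain region, against 8.7% of all genes tested and a background of 4.52%, and 11 (24.4%) at least 2-fold lower, against 9.15% and 8.75%. The median log2 ratio was -0.39 for members and -0.02 for the background, and 0.11 with the 51 cortex spots of the lower columns. This comparison shares the cortex spots with the first and the midbrain spots with the second. Per spot, 2 were higher and 34 lower, again with no share over all genes beside them.

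The 7 higher members were Unc5b (77.5 against 13.7 CPM, log2 ratio 2.50, 2.07 to 2.94), Plxnb3 (58.1 against 10.3 CPM, 2.49), Ntn1 (46.3 against 10.5 CPM, 2.14), Ephb1 (1.62), Sema6d (1.47), Efnb3 (1.43) and Robo1 (1.18). Ntn1 encodes the classical netrin, which attracts axons through Dcc. The lower members included Robo3 with 3 against 292 UMIs (-4.87, -7.16 to -3.31), Ntn5 with 5 against 252 (-3.92), the ephrin-B gene Efnb2 with 9 against 201 (-2.75) and Plxnd1 with 25 against 498 (-2.58). Slit3 (-2.07), Unc5a (-1.71), Epha4 (-1.70), Ephb6 (-1.35), Efna5 (-1.30), Ephb3 (-1.24) and Robo2 (-1.19) were nearer to the threshold. Epha4 was at 1.22 in the lower columns, where cortex is almost all layer 6b. Summed oligodendrocyte markers were 8439 CPM in the ventral midbrain region and 899 CPM in cortex, glutamatergic neuron markers 384 and 5505 CPM, astrocyte markers 2164 and 927 CPM, and choroid plexus and ependyma markers 204 and 9.01 CPM; their part in these ratios was not tested.

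The white matter region, with summed oligodendrocyte markers of 20182 CPM, led for Plxnb3, Unc5b, Efnb3, Ephb1, Sema6d and Sema3b. Plxnb3, a plexin that binds Sema5a, had 90 UMIs there (215 CPM, 173 to 264) against 22.0 CPM elsewhere (9.79-fold), and 2.25 CPM from 4 UMIs in the dentate gyrus, where the oligodendrocyte sum was also lowest. Unc5b had 150.5 CPM (116 to 193) in white matter, 86.5 CPM in the Slc6a3/Th cluster and 3.94 CPM in the dentate gyrus. Compared directly with the ventral midbrain region, white matter was higher in Plxnb3 (3.70-fold, log2 ratio 1.89, 1.45 to 2.32), Efnb3 (2.25-fold) and Plxnb1 (2.05-fold). These were 3 of 20 measured members against a background of 1.04%, and 4 (Plxna4, Epha5, Slit1 and Efna3) were at least 2-fold lower against 11.8%. For this comparison and those of bands, dentate neighbours and hindbrain below, no share over all genes was computed. The background lacks the variable genes, so its shares are lowered by that choice. Summed astrocyte markers were 7016 CPM in white matter and 2164 CPM in the ventral midbrain region; the part of astrocyte and oligodendrocyte markers was not tested.

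Efnb3, Sema3b, Sema6d and Ephb1 shared their high level in white matter with another region. Sema6d had 219.8 CPM in white matter and 219.6 CPM in the hindbrain region, where oligodendrocyte markers summed to 4522 CPM. Its lowest level was in the dentate gyrus (42.8 CPM). Ephb1 had 160.0 CPM in white matter, 152.7 CPM in the Slc6a3/Th cluster and 147.6 CPM in Sp5/Sox14. Oligodendrocyte markers summed to 20182, 9042 and 1881 CPM in these 3 regions. The leads of Sema6d and Ephb1 over the next region were within counting error. Efnb3 was as high in the dentate gyrus, which had the fewest oligodendrocyte transcripts, as in white matter, with 715 CPM (676 to 755) and 717 CPM (638 to 802). Sema3b, a secreted semaphorin with 140 UMIs in all, had 26 UMIs in white matter (62.1 CPM, 40.6 to 91.0) and 54 in the meningeal region (51.1 CPM, 38.3 to 66.6). The difference between these was within counting error, and the meningeal region led when no spot minimum was set (log2 ratio over the rest 3.88) and when no gene was left out of the clustering (3.94).

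**Figure D4:**
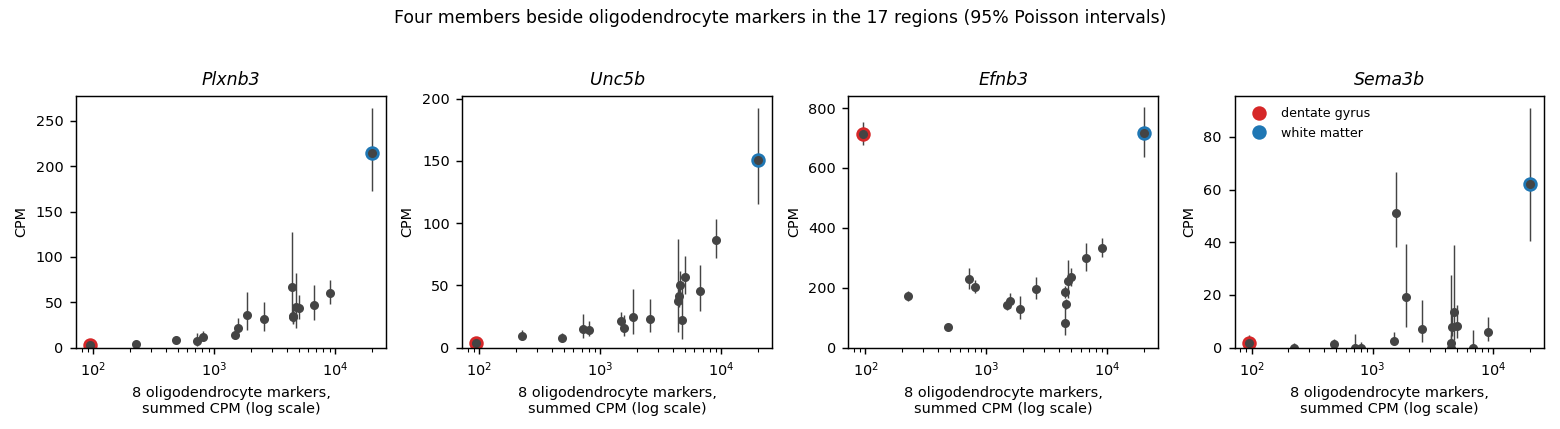
CPM of Plxnb3, Unc5b, Efnb3 and Sema3b in the 17 regions (linear axis) against the summed CPM of 8 oligodendrocyte markers (log axis), with 95% Poisson intervals; red marks the dentate gyrus and blue the white matter region. Plxnb3 and Unc5b are highest in white matter and lowest or near lowest in the dentate gyrus, Efnb3 is high in both (717 and 715 CPM), and Sema3b has a second high region, the meninges.

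Within cortex, the upper and deep bands differed in 5 of 36 measured members. Unc5d, a netrin receptor, had 61.9 CPM in the upper band and 17.3 CPM in the deep band (log2 ratio 1.84, 1.31 to 2.41). Plxnd1, the plexin that binds Sema3e, had 149 and 41.9 CPM (1.83, 1.48 to 2.18), and Epha4 had 464.5 and 206 CPM (1.17). These 3 compare with a background of 1.37%, which lacks the variable genes used for clustering. The 2 members higher in the deep band, against a background of 1.14%, were Sema3e (12.1 against 81.9 CPM, -2.76, -3.37 to -2.20) and Efnb3 (67.4 against 142 CPM, -1.08). Sema3e and Plxnd1, a ligand and its receptor, thus had opposite orders between the upper and deep bands. In the layer 6b band Plxnd1 had 42.4 CPM, level with the deep band. Over the section Plxnd1 was highest outside cortex as joined here, in Penk/Adam33 (184 CPM), and had 126 CPM in the meningeal region.

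The layer 6b band differed from the other bands in 14 of 39 members. Nrp2, the co-receptor that binds Sema3f, had 123 UMIs in its 52 spots (168 CPM, 140 to 201) and 15.9 CPM in the other bands (10.6-fold, log2 ratio 3.40, 2.97 to 3.84). Unc5c, a netrin receptor (1.33), and Efnb3 (1.19) were the other members at least 2-fold higher, against a background of 1.90%. The 11 lower members, against a background of 5.44%, were led by Robo3 with 1 UMI against 291 (-5.53, -10.84 to -3.05), Epha4 (-3.05), Ntn5 (-2.28) and Sema7a (-2.22). Sema3c, a secreted semaphorin with 164 UMIs in all, was highest in the layer 6b band, with 36.9 CPM (24.3 to 53.7) against 6.76 CPM elsewhere. Of the 52 layer 6b spots, 49 lie in the lower array columns, against 0 of 202 in the upper band and 2 of 199 in the deep band, so band and place in the section cannot be told apart here. Summed GABAergic neuron markers were 1186 CPM in the upper, 2215 CPM in the deep and 2851 CPM in the layer 6b band; their part in the band differences was not tested.

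**Figure D5:**
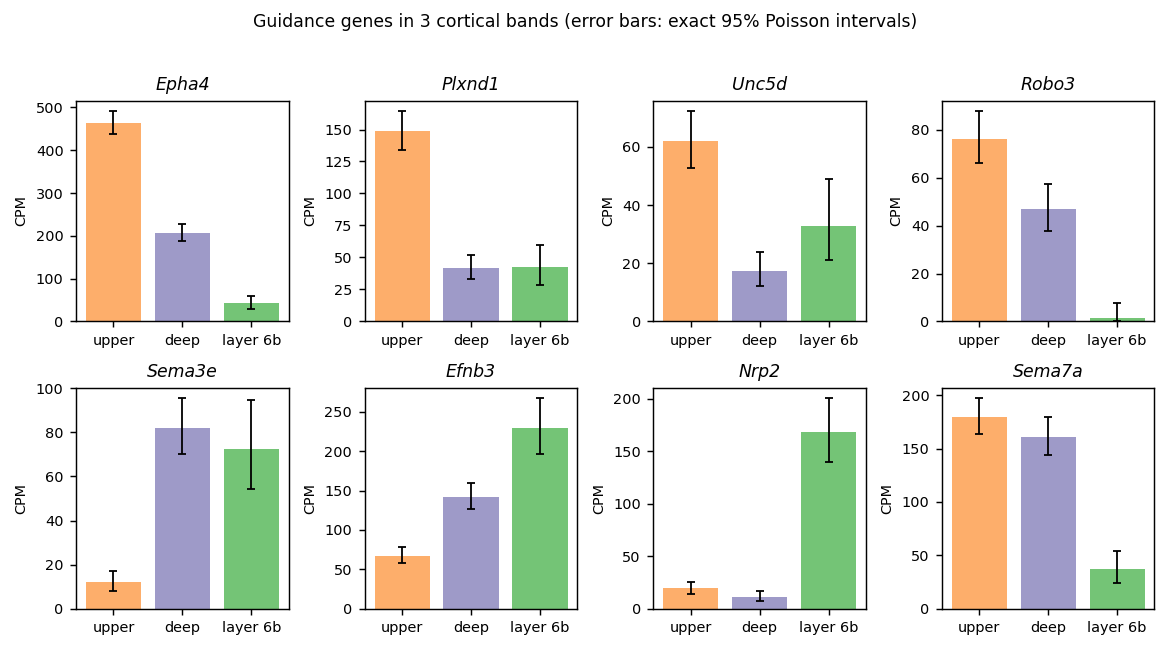
CPM of 8 members in the upper, deep and layer 6b bands of cortex, with exact 95% Poisson intervals; bars start at 0. Plxnd1 and Unc5d are highest in the upper band, Sema3e is low there (12.1 CPM), and Nrp2 is high in layer 6b alone of the 3 bands (168 CPM).

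The dentate gyrus was also set against the regions that border it. Against the Ddn/Thrsp region (157 spots, led by the dendritic gene Ddn), 13 of 21 measured members were at least 2-fold higher, against a background of 20.3%, and 1, Sema6d, was lower (-1.37), against 7.23%. The dentate gyrus held 1776593 UMIs and the Ddn/Thrsp region 569331, so the minimum of 100 UMIs leaves out members that are low in the dentate gyrus. Plxnb1 (15.2 against 123 CPM, from 27 and 70 UMIs) was left out in this way. The split therefore depends on the minimum, and with at least 20 UMIs more members were lower. The highest were Ntn5 (2.21, 1.60 to 2.89), Slit3 (2.08), Slit1 (2.04) and Sema5a (1.91). Ntng2 was an exception among the granule cell ligands, with 360 CPM in the dentate gyrus and 350 CPM in the Ddn/Thrsp region (interval of the log2 ratio -0.19 to 0.28). Plxnb1 had its highest level of the section in the Ddn/Thrsp region (123 CPM), and its lead over white matter (103 CPM) was within counting error. Astrocyte markers summed to 4702 CPM in the Ddn/Thrsp region against 490 CPM in the dentate gyrus, and their part was not tested.

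Against the Gpr161/Fezf2 arc, 10 of 33 measured members were at least 2-fold higher (background 7.31%) and 10 lower (background 7.74%). Sema5a had 222 UMIs against 7 (32.5-fold, log2 ratio 5.02, 3.95 to 6.35) and Ntn5 had 333 against 18 (4.24, 3.56 to 5.02). Epha7 (2.37), Slit1 (2.27) and Plxna4 (2.04) followed. On the other side, Efna5 had 4 UMIs against 125 (-4.93, -6.83 to -3.54), Robo1 27 against 152 (-2.46) and Plxna1 18 against 96 (-2.38). Epha6 was highest in this arc, with 80.2 CPM against 42.2 CPM in the dentate gyrus, and its lead was beyond counting error (0.93, 0.52 to 1.35). Summed GABAergic neuron markers were 98.5 CPM in the dentate gyrus and 1804 CPM in the arc, and oligodendrocyte markers 94.6 and 808 CPM; their part in these ratios was not tested.

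The hindbrain region and the dorsal midbrain regions were compared next. Slit1 had 25 UMIs in the hindbrain region and 659 in the dorsal midbrain regions (24.2-fold lower, log2 ratio -4.60, -5.24 to -4.02), whereas Slit3 had 327 against 100 (3.56-fold higher, 1.83). Sema3e had 364 against 59 UMIs (6.71-fold higher, 2.75), and Sema3f 63 against 188 (-1.46). Epha8 was 13.9-fold lower in the hindbrain region (-3.80) and Ephb3 3.29-fold higher (1.72). Of 38 measured members, 4 were at least 2-fold higher, against a background of 3.06%, and 8 lower, against 4.44%. The remaining ones were Unc5c (1.10) on the higher side and Efna3 (-2.04), Ephb6 (-1.75), Robo1 (-1.59), Plxna1 (-1.31) and Epha4 (-1.24) on the lower. Summed glutamatergic neuron markers were 4167 CPM in the hindbrain region, 376 CPM in Cartpt/Tcf7l2 and 538 CPM in Sp5/Sox14; their part in these ratios was not tested.

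Ligands and receptors that bind each other can be set side by side in the dentate gyrus and its neighbours. Slit1 and Slit3 were highest in the dentate gyrus, while of their receptors Robo1 was lowest there (15.2 CPM) and highest in the Ttr/Slc6a3 cluster (138 CPM), and Robo2 was highest in the layer 6b band (310 CPM) with 194 CPM in the dentate gyrus. Slit2 had 156 UMIs in all and no lead beyond counting error. For the secreted semaphorins, the co-receptors Nrp1 and Nrp2 had 35.5 and 92.9 CPM in the dentate gyrus. Sema3f and Sema3c had 1.69 and 2.81 CPM there, from 3 and 5 UMIs, and Sema3a only 37 UMIs on the whole section. Sema3e, which binds plexin-D1, had 2.25 CPM from 4 UMIs in the dentate gyrus, and Plxnd1 had 18.6 CPM. Sema5a was high in the dentate gyrus, where of its receptors Plxna1 (10.1 CPM) and Plxnb3 (2.25 CPM) were low. Plxna3 had 15.2 CPM there, near its level over all tissue spots (12.8 CPM).

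In the netrin family, Ntn1 was highest in the Tph2/Slc18a2 region (77.4 CPM) and lowest in the dentate gyrus (4.50 CPM from 8 UMIs), where its receptors Unc5a (783 CPM) and Dcc (24.2 CPM from 43 UMIs) were highest. The other netrin receptors did not follow them, since Unc5b was lowest in the dentate gyrus (3.94 CPM), Unc5d had 7.88 CPM there against 71.4 CPM in Penk/Adam33, and Unc5c had 20.8 CPM there against 41.5 CPM in the hindbrain region. The lead of Dcc over the Slc6a3/Th cluster (18.9 CPM) was within counting error. In the ephrin-A family, Epha4 and Epha7 were highest in the dentate gyrus while Efna5 was lowest there (2.25 CPM), and Efna3 had 236 CPM there against 273 CPM in the layer 6b band. In the ephrin-B family, Efnb3 was high and Ephb3 low (1.13 CPM) in the dentate gyrus, while Ephb1 had 51.8 CPM there and 160.0 CPM in white matter. Sema7a was highest in the small Slc18a3/Prph region (328 CPM from 44 UMIs), which carries the motor neuron genes Slc18a3 and Prph as its leading genes, and its receptor Plxnc1 in the Penk/Adam33 region (41.8 CPM). The leads of Robo1, Robo2, Ntn1, Efna3, Ephb1 and Plxnc1 over the next region were within counting error.

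Other genes of the guidance pathway were followed through 3 lists. Of the ligands and co-receptors outside the families, 2 of 19 measured had 2-fold or higher levels in the dentate gyrus than in cortex and 4 were lower, with a median log2 ratio of -0.09. The cell adhesion co-receptors had 0 of 10 higher and 3 lower (median -0.25), and the cytosolic effectors 2 of 37 higher and 5 lower (median -0.19), beside background shares of 5.76% and 10.5%. All genes tested gave 6.47% and 13.1%. Pathway genes were left out of the clustering however variable they were, so the background is lowered beside them as well. The highest pathway genes were Tiam1, a Rac activator (1.44, 1.28 to 1.60), Dscaml1, an adhesion protein (1.19), and Vangl2, a planar polarity protein (1.18). The lowest were Cntn2, the adhesion protein contactin-2, with 2 UMIs against 172 (-4.84), Flrt1, a ligand of Unc5 receptors, with 14 against 860 (-4.36), and Rnd1, a GTPase that binds plexins (-2.07).

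Against the ventral midbrain region, the dentate gyrus was at least 2-fold higher for 9 of 34 measured effectors and lower for 6, higher for 2 of 15 ligands and co-receptors and lower for 4, and higher for 0 of 7 adhesion co-receptors and lower for 2, beside background shares of 13.5% and 10.7%. All genes tested gave 13.9% and 15.8%. Mical2, an actin oxidase that acts below plexins (3.76, 3.20 to 4.38), Tiam1 (2.97) and Chn1, a Rac-inactivating protein that acts below EphA4 (2.55), were highest, and Cntn2 (2 against 142 UMIs, -6.30), Flrt1 (-3.51) and Rgs3 (-3.05) lowest. In the ventral midbrain region over cortex, 5 of 37 effectors were higher and 7 lower, 0 of 19 ligands and co-receptors higher and 4 lower, and 2 of 9 adhesion co-receptors higher and 0 lower, beside background shares of 4.52% and 8.75%. All genes tested gave 8.7% and 9.15%. Cntn2 (1.46), Rhoa (1.32) and the cofilin kinase gene Limk1 (1.31) were highest, and Mical2 (-3.30), Ngef (-2.42) and Chn1 (-1.78) lowest.

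Some abundant members had no region that stood far above the rest. Sema6b, with 4526 UMIs on 1639 spots, was at most 1.31-fold higher in a region than in the rest, and Sema4d, with 2612 UMIs, at most 1.39-fold, and neither led beyond counting error. Both still varied downwards, Sema6b to 105 CPM in white matter against 279 CPM in the layer 6b band and Sema4d to 79.0 CPM in the Ddn/Thrsp region against 167 CPM in the dentate gyrus. Members that did not reach 100 UMIs were Sema4b (96), Ephb2 (93), Sema4c (85), Robo4 (76), Ephb4 (75), Epha3 (58), Sema3d (46), Sema3a (37), Efna4 (26), Epha1 (8) and Unc5cl (0), and the least abundant above the minimum were Epha2 (110), Efna1 (136) and Sema3b (140). Low counts depend on the probes as well as on the transcript, and were not read as absence.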

How the data were processed

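The deposited matrix of UMI counts comes from Space Ranger 3.1.1, per the file headers, with build mm10 per the submitters' processing notes. No source used here gives the probe set or settings. The fits used Python 3.11.15, scanpy 1.11.5, anndata 0.12.19, igraph 0.11.9, numpy 2.4.6 and scipy 1.17.1. Tissue spots with at least 500 UMIs were kept, scaled to 10000, log-transformed and clustered (Leiden, resolution 1, seed 0, 30 principal components, 15 neighbours) on 2000 variable genes seen in at least 10 spots, leaving out members, pathway genes and marker genes. A region was named when at least 3 markers of a list, and more than of any other list, had a log2 fold of at least 1 (10 CPM added). Its marker of highest fold and at least 1 of its 10 leading genes also had to be on that list. The Slc6a3/Th cluster met no name and entered the ventral midbrain region by its marker of highest fold alone. This rule and the joining of regions were set after the clusters were seen. No doublet caller or deconvolution was used. UMIs were summed per region, genes with at least 100 UMIs over both regions were compared, and exact conditional binomial or Poisson 95% intervals were computed. A count of 0 was given a limit of 3 counts. With 1 library there was no test between samples and no p-value. Calls were 2-fold, or 4-fold over all other spots. The ratio script was tested on simulated data. All symbols of the rule could be named; of each pathway list comparison the 3 highest and 3 lowest genes whose interval excludes 0 were named, and cell type markers were used as sums. Alternatives included TMM scaling (edgeR 4.0.16 in R 4.3.3), other resolutions, minimums and regions. Members, lists and comparisons were chosen with earlier results of these data known.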

Additional observations from a re-analysis of the deposited data

Results flagged for a closer look

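Member transcripts were also counted on the 235 barcodes that the WT positions do not mark as tissue, which no comparison used. These barcodes held 697435 UMIs, with a median of 2507 UMIs per barcode, and 2443 of the UMIs were from axon guidance members. That is 3503 CPM, against 4130 CPM on the tissue spots, and 64 members had more than 3 UMIs there, above the limit that a count of 0 allows.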

How the results depend on the processing

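No paired analysis was possible because both samples hold the same library and there are no replicates. TMM scaling shifts log2 ratios up by 0.15 for the dentate gyrus over the ventral midbrain region and down by 0.16 for that region over cortex, and reversed no ratio; the alternatives with more moved values are below, and their causes were not tested. UMIs per spot, with no depth scaling, have no share over all genes beside their 2-fold counts. They gave 26 higher and 6 lower members for the dentate gyrus over cortex, and 23 and 1 over the ventral midbrain region. For that region over cortex they gave 2 and 34, and 36 members were at least 4-fold regional. That scaling turned, for the dentate gyrus over cortex, Plxna2 (0.44), Epha5 (0.18), Sema7a (0.45), Plxnb1 (0.37), Plxnc1 (0.018) and Sema4g (0.34), over the ventral midbrain region Sema6d (0.95), Epha5 (1.72), Ephb1 (1.33), Plxnb1 (1.15), Robo1 (0.079) and Sema4g (0.93), and for that region over cortex Robo1 (-0.20). The lower array columns left 2 lower members for the dentate gyrus over cortex, where Nrp2 was at -0.84 and Sema7a at 0.99, and 5 lower for the ventral midbrain region over cortex, where Epha4 was at 1.22. The higher columns hold 0 dentate gyrus spots, so its comparisons were not run there. The pooled hippocampus gave 9 lower members against cortex, with Plxnb1 at 0.11 and Robo1 at 0.14. With at least 20 UMIs per gene more members enter, of lower depth: 22 were lower for the dentate gyrus over the ventral midbrain region (median -0.10) and 13 higher for that region over cortex. With no genes left out of the clustering these were 12 and 11, resolution 0.6 gave 17 lower for that region over cortex, and spots with a UMI of Th or Slc6a3 gave 3 lower for the dentate gyrus. Comparisons among cortical bands, dentate neighbours, white matter and hindbrain were added after the data were seen. With at least 20 UMIs they gave 5 higher and 7 lower for the upper over the deep band, 5 higher for layer 6b, 9 lower against the Ddn/Thrsp region, 22 lower against Gpr161/Fezf2, 5 higher and 15 lower for white matter, and 20 lower for the hindbrain. Leading regions were the same for 17 of 53 members in the higher columns, 24 of 54 in the lower columns, and of 62 members for 24 at resolution 0.6, 37 per spot, 39 with no spot minimum, 44 with no genes left out, 53 with the pooled hippocampus, 55 by mean CPM of spots and 59 to 62 in the other 4 alternatives.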
